A study of Homo sapiens with 18 samples.

Results

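The response of U1U2 cells to medroxyprogesterone acetate (MPA) was set against the response of non-targeting (NT) cells, gene by gene, as the difference between the log2 change of MPA over vehicle in U1U2 cells and the same change in NT cells. The contrast compares 12 of the 18 libraries of the series, 3 in each of 4 groups, within a fit to all 18, so the promoter libraries entered the filter and the estimate of spread. It was called (adjusted p under 0.05) for 34 of the 15558 genes tested, or 0.219%. A fit to the 12 libraries alone called 8 genes, all of them among the 34. For 23 genes (0.148%) the U1U2 response lay above the NT response on the log2 scale and for 11 (0.0707%) it lay below it. At an unadjusted p under 0.05 the contrast counted 1562 genes (10%), 888 of them above 0 (5.71%) and 674 below it (4.33%).

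All libraries came from THESC, an established line of human endometrial stromal cells, the fibroblast-like cells that support the lining of the uterus. U1U2 cells carry the guide RNAs named U1U2 and are labelled PGRA/B-equivalent, promoter cells carry a promoter guide RNA and are labelled PGRB-dominant, and NT cells carry a non-targeting guide RNA and are labelled WT. All 3 lines were CRISPR engineered and kept under blasticidin, then moved to low serum and treated in charcoal-stripped serum for 72 h with 1 µM MPA or with vehicle (0.01% ethanol). Each guide is represented by a single line, so an effect of the guides cannot be told apart from other differences between the lines. The labels do not say that the 3 libraries of a group are separate cultures. The p-values therefore rest on the scatter among these libraries alone, part or all of which may be technical.

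MPA is a synthetic progestin that binds the progesterone receptor and also the glucocorticoid and androgen receptors. The progesterone receptor is a nuclear receptor made from the gene PGR as a long form, B, and a shorter form, A, which start at different promoters. In endometrial stroma the liganded receptor drives decidualization, the change of fibroblast-like cells into secretory cells, in which the transcription factor FOXO1 is an established partner. Counts per gene cannot separate the receptor's forms.

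Of the 34 genes, 28 had an entry among the RefSeq promoter windows (GRCh38.p14, 250 bases before to 50 after a start). The windows of 4 genes with enlarged rises are shown 5′ to 3′ on the gene's strand, because these are among the genes whose difference was called in every alternative fit, and because DEPP1 and the carboxypeptidase M gene (symbol CPM) hold the only matches among the windows of those genes to the motifs searched. Capitals mark AGAACA, a short part of the full site bound by progesterone and glucocorticoid receptors, and GTAAACA, a site bound by FOXO factors. Each was searched on both strands, and the full receptor site was not searched. The RGCC window is chr13:41457300-41457599 on the plus strand. The FOXO1 window is chr13:40666592-40666891, the DEPP1 window chr10:44978760-44979059 and the window of the carboxypeptidase M gene, the one of its 3 that holds a match, chr12:68932573-68932872, all on the minus strand.
RGCC: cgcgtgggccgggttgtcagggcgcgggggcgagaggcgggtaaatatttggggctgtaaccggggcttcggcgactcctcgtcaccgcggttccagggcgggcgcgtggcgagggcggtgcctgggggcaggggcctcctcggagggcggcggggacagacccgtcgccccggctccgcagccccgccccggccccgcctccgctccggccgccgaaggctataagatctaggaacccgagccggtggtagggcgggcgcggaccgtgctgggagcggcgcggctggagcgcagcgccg
FOXO1: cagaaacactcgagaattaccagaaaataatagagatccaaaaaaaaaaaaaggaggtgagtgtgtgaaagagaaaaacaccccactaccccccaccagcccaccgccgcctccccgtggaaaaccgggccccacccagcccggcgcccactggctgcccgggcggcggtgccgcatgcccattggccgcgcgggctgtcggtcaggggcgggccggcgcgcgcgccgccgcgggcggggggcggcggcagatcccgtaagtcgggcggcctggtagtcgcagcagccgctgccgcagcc
DEPP1: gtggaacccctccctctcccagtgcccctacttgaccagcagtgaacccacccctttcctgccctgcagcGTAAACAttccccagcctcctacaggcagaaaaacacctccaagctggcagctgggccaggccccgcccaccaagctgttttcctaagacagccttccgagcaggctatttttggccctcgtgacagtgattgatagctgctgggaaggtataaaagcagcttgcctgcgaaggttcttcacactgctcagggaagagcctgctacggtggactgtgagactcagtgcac
CPM: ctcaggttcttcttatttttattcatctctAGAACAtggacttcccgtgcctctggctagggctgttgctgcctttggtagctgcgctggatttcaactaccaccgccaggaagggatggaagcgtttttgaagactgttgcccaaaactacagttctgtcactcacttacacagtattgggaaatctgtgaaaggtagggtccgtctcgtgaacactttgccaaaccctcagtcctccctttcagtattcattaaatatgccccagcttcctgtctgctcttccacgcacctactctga
The string AGAACA occurred in 5 of the 47 windows of the called genes (10.6%) and in 5192 of all 35116 windows (14.8%). The FOXO site occurred in 2 of the 47 (4.26%) and in 1202 of all (3.42%). A match is a string of letters and not a binding site, and no match says nothing of binding elsewhere.

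Total counts ran from 11.9 to 31.3 M in the 12 libraries. NT vehicle replicate 1 stood apart, with the lowest total, the highest mitochondrial share (3.02%) and a ribosomal protein pseudogene level of 1310 CPM (counts scaled to library size), where the other 11 libraries had 516 to 818. Without that library 35 genes were called, of which 25 were among the 34. Leaving out each library in turn gave 8 calls (without NT vehicle replicate 2) to 47 (without U1U2 vehicle replicate 1). Stromal markers ranged widely. DCN, at 13818 to 33775 counts, and LUM, at 10473 to 30000, were abundant in every library. HAND2 had 312 to 1220 counts, ENG 305 to 1399 and ESR1, the estrogen receptor gene, only 6 to 27. Among markers of other cell types, some were near 0, with the endothelial PECAM1 at 0 to 3 counts and the epithelial CDH1 at 0 to 6, and others were not. The endothelial marker TEK had 673 to 2382 counts, the epithelial KRT19 142 to 852, KRT18 105 to 393, MUC1 48 to 166 and KRT8 35 to 152, and the leukocyte PTPRC at least 33. None of the 15 stromal, 11 epithelial, 8 endothelial or 7 leukocyte markers was called in the difference of responses, and 15, 5, 1 and 1 of these were tested. The summed endothelial list, in which ERG and CLDN5 were at 0 in all 12 libraries and no member but TEK passed 6 counts in any, ran from 42.7 to 51.5 CPM in U1U2 cells under MPA and from 67.4 to 76.2 in vehicle, against 43.8 to 45.7 in NT cells under MPA and 54.9 to 59.1 in vehicle, and its part in the results was not tested. In bulk libraries a smaller share of cells with a transcript and less of it per cell cannot be told apart.

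The gene targeted by the guides, PGR, measured 291, 264 and 226 CPM in U1U2 cells under MPA and 674, 531 and 584 in U1U2 cells in vehicle, against 95.1, 82.3 and 76.2 in NT cells under MPA and 120, 153 and 147 in NT cells in vehicle. Every U1U2 library lay above every NT library in both media. PGR fell under MPA in both lines, by 1.20 ± 0.12 (SE) on the log2 scale in U1U2 cells and by 0.73 ± 0.12 in NT cells. The difference of these falls, -0.47 ± 0.17, did not pass the threshold (adjusted p = 0.441), and it passed in none of the 19 alternative fits.

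Each called gene was sorted by the signs and sizes of its 2 fitted responses, which are part of the contrast itself, so the sorting is a description. A response was enlarged when both lines moved the same way and U1U2 cells moved further, reduced when U1U2 cells moved less far, and of opposite sign otherwise. Of the 34 genes, 27 were enlarged, 2 reduced and 5 of opposite sign. Over all genes tested the shares of these classes were 33.8%, 25.4% and 40.9%. The enlarged genes comprised 20 rises and 7 falls. The response of U1U2 cells was itself called for 32 of the 34 genes, against 11.7% of all genes, and that of NT cells for 18, against 5.93%. Both responses were called for 16 genes and these moved the same way in both lines, so no gene was called up in one line and called down in the other.

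**Figure D1:**
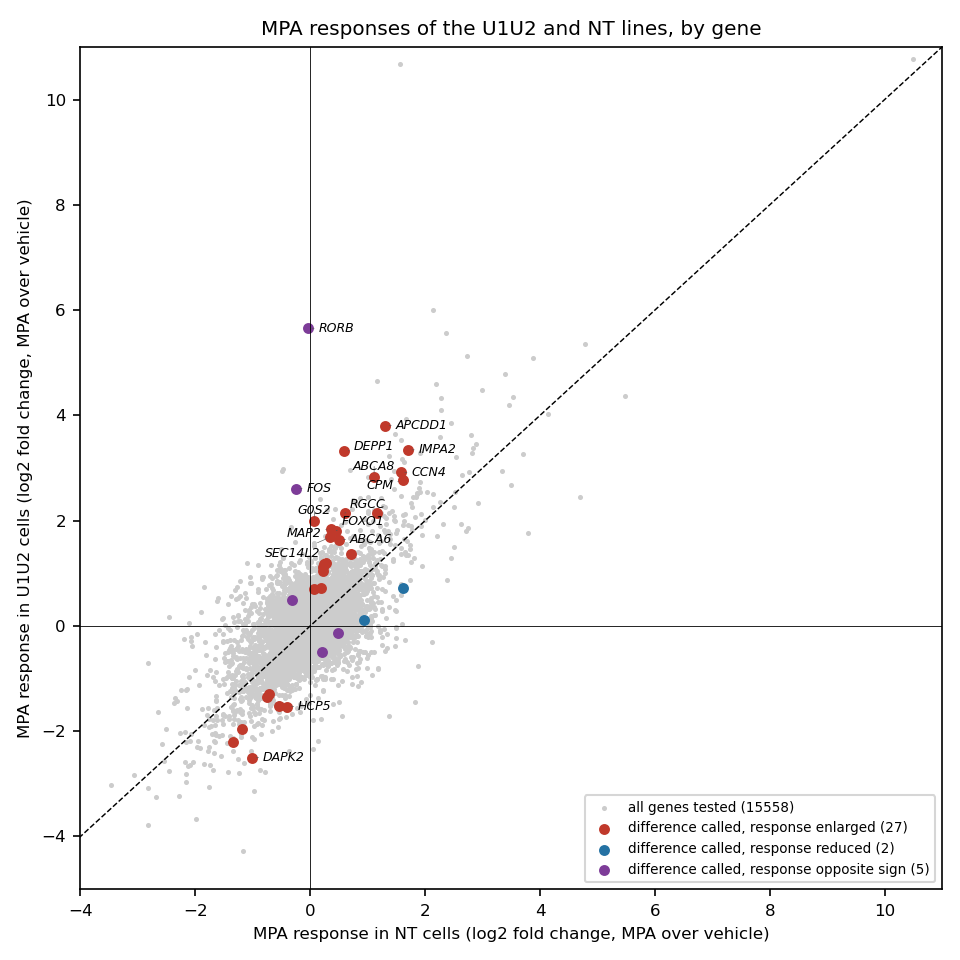
Log2 fold change of MPA over vehicle in U1U2 cells (vertical axis) against NT cells (horizontal axis) for 15558 genes in grey, with the 34 genes whose responses differed in colour and equal responses on the dashed line. The 27 enlarged responses lie on the far side of the dashed line from 0, the 2 reduced ones between that line and the horizontal axis, and RORB and FOS stand out among the 5 of opposite sign.

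The rises that were larger in U1U2 cells were led by 7 genes whose difference was called in all 19 alternative fits. RGCC (ENSG00000102760, chr13:41457559-41470882 on GRCh38), a regulator of the cell cycle that binds CDK1, measured 71.8, 66.9 and 64.3 CPM in U1U2 cells under MPA and 14.1, 17.3 and 14.4 in vehicle, against 27.5, 28.9 and 28.9 in NT cells under MPA and 18.6, 18.9 and 18.7 in vehicle. Under MPA all 3 U1U2 libraries exceeded all 3 NT libraries, whereas in vehicle they were all lower. RGCC rose 4.42-fold in U1U2 cells and 1.52-fold in NT cells, and the responses differed by 1.54 ± 0.13 on the log2 scale (adjusted p = 1.67e-05). The gene of carboxypeptidase M (symbol CPM, ENSG00000135678, chr12:68842197-68971570) encodes a membrane enzyme that trims arginine and lysine from the ends of peptides. It measured 179, 175 and 161 CPM in U1U2 cells under MPA and 24.7, 25.4 and 25.7 in vehicle, against 69.3, 68.3 and 73.4 in NT cells under MPA and 22.6, 24.3 and 22.1 in vehicle. It rose strongly in both lines, 6.79-fold in U1U2 cells and 3.05-fold in NT cells, and the responses differed by 1.15 ± 0.11 (adjusted p = 3.01e-05). It overlaps MDM2 on the opposite strand, whose responses differed by 0.19 (adjusted p = 0.643), and because the strand setting of the counting is not known, their reads cannot be told apart with certainty.

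FOXO1 (ENSG00000150907, chr13:40469953-40666597), the forkhead transcription factor of insulin signalling and decidualization, measured 59, 59.8 and 47.7 CPM in U1U2 cells under MPA and 16.1, 14 and 17.3 in vehicle, against 38.9, 34 and 29.9 in NT cells under MPA and 22.3, 28.2 and 24.5 in vehicle. U1U2 cells had more FOXO1 than NT cells under MPA and less in vehicle, with no overlap of libraries in either medium. Its response was 1.81 ± 0.12 in U1U2 cells and 0.45 ± 0.12 in NT cells on the log2 scale, and the difference was 1.36 ± 0.17 (adjusted p = 0.00102). DEPP1 (ENSG00000165507, chr10:44970981-44978810), a progesterone-induced decidual gene and a known FOXO target, measured 9.84, 11.2 and 15.6 CPM in U1U2 cells under MPA and 1.06, 1.62 and 0.959 in vehicle, against 1.73, 1.68 and 1.38 in NT cells under MPA and 1.34, 0.953 and 0.983 in vehicle. The lines overlapped in vehicle and stood far apart under MPA. DEPP1 rose 9.95-fold in U1U2 cells. In NT cells its change of 0.59 ± 0.29 did not pass the threshold (adjusted p = 0.314), and the responses differed by 2.72 ± 0.38 (adjusted p = 0.00339).

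APCDD1 (ENSG00000154856, chr18:10454628-10489948), a membrane inhibitor of WNT signalling, measured 5.81, 5.84 and 6.31 CPM in U1U2 cells under MPA and 0.415, 0.406 and 0.448 in vehicle, against 2.90, 2.34 and 1.72 in NT cells under MPA and 0.920, 0.953 and 0.983 in vehicle. The lines crossed, since U1U2 libraries were all lower than NT libraries in vehicle and all higher under MPA. The rise was 14-fold in U1U2 cells and 2.47-fold in NT cells, and the responses differed by 2.51 ± 0.30 on the log2 scale (adjusted p = 0.000936). IMPA2 (ENSG00000141401, chr18:11981025-12030883), an inositol monophosphatase, measured 47.5, 41.8 and 45.7 CPM in U1U2 cells under MPA and 3.46, 4.87 and 4.83 in vehicle, against 11.9, 12.2 and 14.2 in NT cells under MPA and 3.60, 3.86 and 4.19 in vehicle. Its libraries overlapped in vehicle, and the rise was 10.2-fold in U1U2 cells against 3.25-fold in NT cells, a difference of 1.64 ± 0.21 (adjusted p = 0.00126). G0S2 (ENSG00000123689, chr1:209675420-209676388), an inhibitor of the triglyceride lipase ATGL, measured 7.12, 7.69 and 6.44 CPM in U1U2 cells under MPA and 1.89, 1.94 and 1.53 in vehicle, against 2.47, 2.09 and 2.41 in NT cells under MPA and 2.34, 2.33 and 1.90 in vehicle. Only the U1U2 MPA group stood apart from the other 3. G0S2 rose 3.96-fold in U1U2 cells, the NT change of 0.07 ± 0.19 did not pass (adjusted p = 0.92), and the responses differed by 1.91 ± 0.25 (adjusted p = 0.00166).

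**Figure D2:**
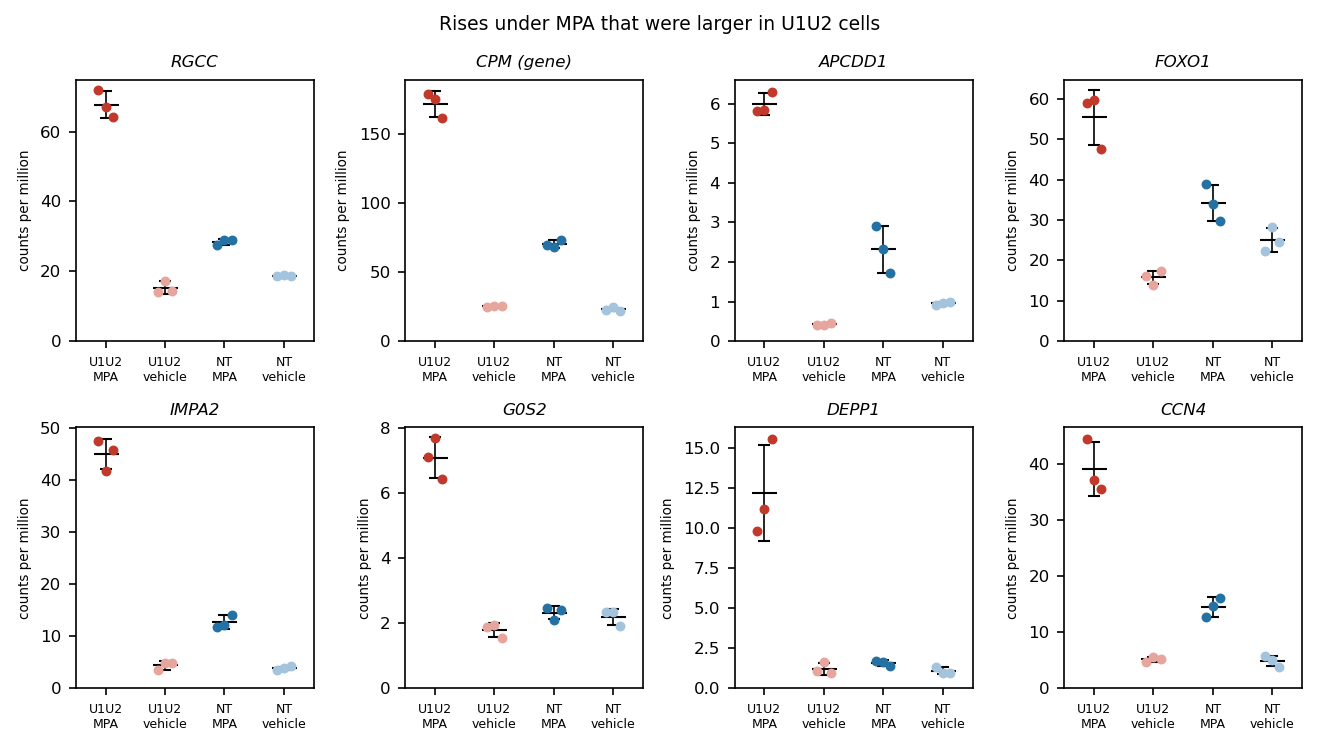
CPM of 8 genes with enlarged rises in the 3 libraries of each group, with MPA left of vehicle and U1U2 left of NT; points are libraries and bars the mean ± SD. In each panel the U1U2 MPA libraries lie above all others, as for RGCC, which averaged 67.7 there and 28.4 in NT cells under MPA.

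The other 13 enlarged rises were called less firmly. CCN4, a matricellular protein of the WNT pathway, averaged 39.0 ± 4.79 CPM (SD, n = 3) in U1U2 cells under MPA and 5.14 ± 0.457 in vehicle, against 14.5 ± 1.75 in NT cells under MPA and 4.88 ± 0.960 in vehicle. Its log2 responses of 2.92 and 1.58 differed by 1.34 ± 0.24 (adjusted p = 0.0225). ALCAM, an adhesion molecule of the immunoglobulin family and one of the most abundant genes called, averaged 1345 ± 108 CPM in U1U2 cells under MPA and 622 ± 57.2 in vehicle, against 819 ± 57.2 in NT cells under MPA and 699 ± 70.6 in vehicle. Its rise was called in U1U2 cells only, with a difference of 0.88 ± 0.15 (adjusted p = 0.0188). The calls of CCN4 and ALCAM each held in 5 of the 12 fits that left out 1 library, and their largest adjusted p was 0.106 and 0.0855.

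Of the other genes, ABCA8 and ABCA6 encode lipid transporters of the same family and lie close together on chromosome 17. ABCA8 measured 24.5, 24.5 and 19.9 CPM in U1U2 cells under MPA and 2.49, 3.5 and 3.58 in vehicle, against 10.4, 10.8 and 12 in NT cells under MPA and 3.26, 6.57 and 5.18 in vehicle, so the lines were separate under MPA and overlapped in vehicle. Its responses differed by 1.72 ± 0.32 (adjusted p = 0.0308). ABCA6 averaged 7.49 ± 0.816 CPM in U1U2 cells under MPA and 2.41 ± 0.236 in vehicle, against 5.49 ± 0.0859 in NT cells under MPA and 3.81 ± 0.727 in vehicle. Its responses differed by 1.13 ± 0.22 (adjusted p = 0.0422). CERS6, a ceramide synthase, rose in both lines, 4.45-fold in U1U2 cells and 2.24-fold in NT cells, with a difference of 0.99 ± 0.16 (adjusted p = 0.0156). SEC14L2, a lipid-binding protein that carries tocopherol, rose 3.22-fold in U1U2 cells, while its NT change of 0.35 ± 0.19 did not pass the threshold. Its responses differed by 1.34 ± 0.26 (adjusted p = 0.0422). Leaving out 1 library at a time, the call held in 6 of 12 fits for CERS6, 3 for ABCA6 and for SEC14L2, and 2 for ABCA8.

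The remaining 7 enlarged rises were MAP2, PLCB4, KCNE4, CAT, NR2F1, ALDH1A1 and RHOU. MAP2, a microtubule-associated protein best known from neurons, averaged 14.3 ± 2.49 CPM in U1U2 cells under MPA and 4.00 ± 0.741 in vehicle, against 4.95 ± 0.571 in NT cells under MPA and 3.86 ± 0.375 in vehicle. Its responses differed by 1.49 ± 0.25 (adjusted p = 0.0156). PLCB4, a phospholipase C, was higher in U1U2 than in NT cells in both media and more so under MPA, where its libraries held 96.6, 101 and 91.8 CPM in U1U2 cells against 47.8, 44 and 49.3 in NT cells. Its difference of responses was 0.67 ± 0.12 (adjusted p = 0.0225). KCNE4, a potassium channel subunit, and CAT, the peroxide-degrading catalase, had the smallest differences among the enlarged rises, at 0.64 ± 0.12 (adjusted p = 0.0326) and 0.53 ± 0.10 (adjusted p = 0.0422). KCNE4 averaged 34.7 CPM in U1U2 cells under MPA and 21.2 in vehicle, against 24.3 in NT cells under MPA and 23.1 in vehicle. Of the 12 fits that left out 1 library, MAP2 was called in 6, PLCB4 in 5, KCNE4 in 2 and CAT in none, with an adjusted p of up to 0.131 for CAT. KCNE4 and CAT also lost the call with no filter on low counts.

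The 7 falls that were larger in U1U2 cells were those of KIT, HTR2B, MEST, ABCC9, DAPK2, HCP5 and SBF2-AS1. KIT, the receptor tyrosine kinase for stem cell factor, measured 32.8, 28.2 and 27 CPM in U1U2 cells under MPA and 125, 141 and 141 in vehicle, against 41.6, 44.5 and 54.7 in NT cells under MPA and 102, 125 and 131 in vehicle. The U1U2 MPA libraries were below all others, and the vehicle libraries overlapped. KIT fell by 2.21 ± 0.11 on the log2 scale in U1U2 cells and by 1.35 ± 0.11 in NT cells, and the responses differed by -0.86 ± 0.15 (adjusted p = 0.0225). HTR2B, a serotonin receptor, measured 57.3, 49.7 and 45.3 CPM in U1U2 cells under MPA and 126, 152 and 158 in vehicle, against 75.7, 76.1 and 94.3 in NT cells under MPA and 112, 129 and 117 in vehicle. It fell in both lines, with a difference of -0.98 ± 0.16 (adjusted p = 0.0159). ABCC9, a regulatory subunit of ATP-sensitive potassium channels, averaged 85.8 ± 6.96 CPM in U1U2 cells under MPA and 210 ± 4.53 in vehicle, against 112 ± 7.03 in NT cells under MPA and 185 ± 12.8 in vehicle. Its difference was the smallest of the 7, at -0.57 ± 0.11 (adjusted p = 0.0422).

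MEST, an imprinted gene of the hydrolase family, measured 32.5, 26.4 and 23.7 CPM in U1U2 cells under MPA and 97.3, 112 and 111 in vehicle, against 43.9, 47.0 and 53.6 in NT cells under MPA and 105, 113 and 110 in vehicle. Its responses differed by -0.77 ± 0.15 (adjusted p = 0.0404). DAPK2, a death-associated protein kinase, had the largest difference among the falls, -1.50 ± 0.25 (adjusted p = 0.0156), at low levels. It held 17, 14 and 21 counts in U1U2 cells under MPA and 99, 123 and 121 in vehicle, against 55, 66 and 27 in NT cells under MPA and 49, 78 and 77 in vehicle. Scaled to library size, the U1U2 MPA libraries were the lowest of the 4 groups, at 0.634 to 0.797 CPM. Among noncoding RNAs, HCP5, a transcript of the HLA class I region, fell by 1.53 ± 0.14 in U1U2 cells, while its NT change of -0.40 ± 0.14 did not pass the threshold, and SBF2-AS1 fell by 1.36 ± 0.09 in U1U2 cells and by 0.76 ± 0.09 in NT cells. Their differences were -1.14 ± 0.19 (adjusted p = 0.0174) and -0.60 ± 0.12 (adjusted p = 0.048). Of the 12 fits that left out 1 library, DAPK2 was called in 9, HTR2B in 6, KIT in 5, HCP5 in 4, MEST in 2, ABCC9 in 1 and SBF2-AS1 in none.

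**Figure D3:**
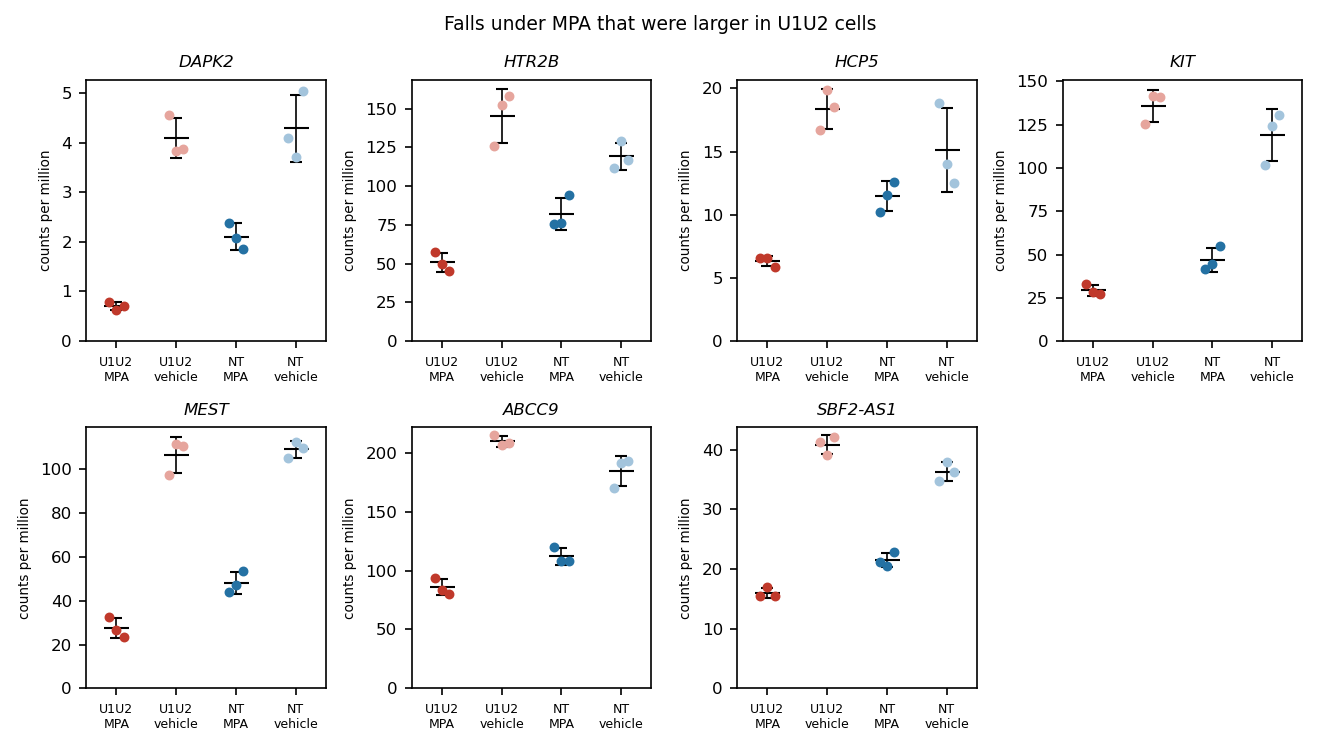
CPM of the 7 genes whose fall under MPA was larger in U1U2 cells, by library, with MPA left of vehicle and U1U2 left of NT; bars are the mean ± SD. U1U2 MPA libraries are the lowest in every panel, as for MEST, which averaged 27.5 there and 48.1 in NT cells under MPA.

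The reduced responses were those of FRY and SYTL4. FRY (ENSG00000073910, chr13:31846713-32299122), a large scaffold protein that binds microtubules, measured 22.3, 21.9 and 22.8 CPM in U1U2 cells under MPA and 22.1, 20.1 and 19.9 in vehicle, against 35.3, 40.2 and 39.2 in NT cells under MPA and 18.8, 21.6 and 19.3 in vehicle. The NT MPA libraries alone stood above the rest. FRY rose 1.92-fold in NT cells, its U1U2 change of 0.11 ± 0.09 did not pass the threshold (adjusted p = 0.483), and the responses differed by -0.82 ± 0.13 (adjusted p = 0.00731). This call held in all 12 fits that left out 1 library. SYTL4 (ENSG00000102362, chrX:100674491-100732123), the Rab27 effector granuphilin, measured 22.8, 22.6 and 22.1 CPM in U1U2 cells under MPA and 12.5, 15.1 and 13.3 in vehicle, against 30.4, 29.9 and 31.0 in NT cells under MPA and 9.46, 9.77 and 10.6 in vehicle. U1U2 cells had more SYTL4 than NT cells in vehicle and less under MPA, with no overlap in either medium. It rose in both lines, 1.65-fold in U1U2 cells and 3.06-fold in NT cells, a difference of -0.89 ± 0.14 (adjusted p = 0.0117) that held in 10 of the 12 fits. The fits that lost it left out NT vehicle replicate 2 or U1U2 vehicle replicate 2, and gave an adjusted p of up to 0.0763.

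Of the 5 genes with responses of opposite sign, 3 rose in U1U2 cells. RORB, an orphan nuclear receptor related to the retinoic acid receptors, held 31, 29 and 45 counts in U1U2 cells under MPA and 0, 1 and 1 in vehicle, against 1, 4 and 2 in NT cells under MPA and 2, 2 and 1 in vehicle. Only the U1U2 MPA group was clear of the lowest counts. The summed counts, scaled to library size, gave a ratio of MPA to vehicle of 61.3 in U1U2 cells (95% Clopper-Pearson interval 16.6 to 513) and 0.974 in NT cells (0.266 to 3.89), intervals that cover counting error only. The fitted difference for RORB had an adjusted p of 0.00731, and its size depends on the prior count because U1U2 vehicle summed to 2 counts. Only MPA libraries of U1U2 and promoter cells held more than 4 RORB counts. RORB thus passed the low-count filter through groups where it was high, and its call is no independent support. FOS, a subunit of the AP-1 transcription factor, held 81, 56 and 74 counts in U1U2 cells under MPA and 7, 17 and 17 in vehicle, against 7, 17 and 4 in NT cells under MPA and 4, 12 and 7 in vehicle. Its U1U2 response was 2.61 ± 0.26, its NT change of -0.25 ± 0.38 did not pass, and the responses differed by 2.86 ± 0.48 (adjusted p = 0.0156). RORB and FOS were each called in 10 of the 12 fits that left out 1 library. Both lost the call without NT vehicle replicate 2, RORB also without replicate 1 and FOS also without replicate 3 of that group, with an adjusted p of up to 0.0834 for RORB and 0.153 for FOS.

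PDE4D, a phosphodiesterase that degrades cyclic AMP, measured 57.5, 59.2 and 56.1 CPM in U1U2 cells under MPA and 45.3, 35.5 and 42.9 in vehicle, against 42.0, 39.0 and 35.7 in NT cells under MPA and 41.3, 50.8 and 52.5 in vehicle. It rose in U1U2 cells by 0.49 ± 0.11, the NT change of -0.31 ± 0.11 did not pass the threshold (adjusted p = 0.133), and the difference was 0.79 ± 0.16 (adjusted p = 0.0422). SYPL2, a relative of synaptophysin, measured 59.6, 53.9 and 62.4 CPM in U1U2 cells under MPA and 63.2, 66.2 and 64.0 in vehicle, against 77.8, 93.2 and 84.8 in NT cells under MPA and 67.4, 59.4 and 55.8 in vehicle. Here NT cells carried the called response, a rise of 0.49 ± 0.09, and the responses differed by -0.62 ± 0.12 (adjusted p = 0.0422). C1orf115 fell by 0.49 ± 0.10 in U1U2 cells, its NT change of 0.20 ± 0.10 did not pass, and the responses differed by -0.69 ± 0.14 (adjusted p = 0.048). In each of these pairs only one line's response was called, so the opposite signs are those of the fitted values and no reversal was shown. The calls held in 2 of the 12 fits that left out 1 library for PDE4D, 3 for SYPL2 and 1 for C1orf115.

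**Figure D4:**
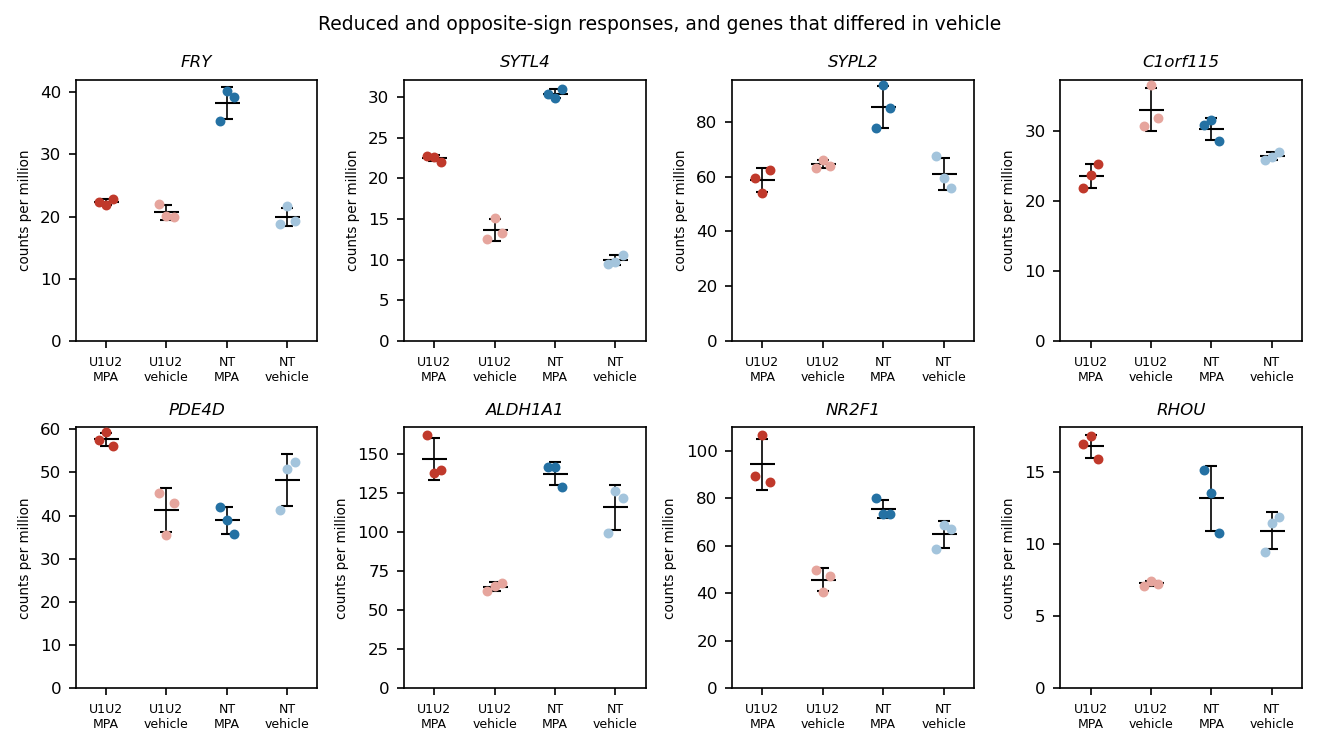
CPM by library for 2 reduced responses (FRY, SYTL4), 3 of opposite sign (SYPL2, C1orf115, PDE4D) and the 3 genes whose lines differed in vehicle only by calls (ALDH1A1, NR2F1, RHOU), with MPA left of vehicle and U1U2 left of NT; bars are the mean ± SD. FRY averaged 38.2 in NT cells under MPA against 19.9 to 22.3 in the other 3 groups, and ALDH1A1 averaged 65.1 in U1U2 cells in vehicle against 116 to 146 in the others.

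The difference of responses equals the U1U2 over NT difference under MPA minus the same difference in vehicle, so each gene could be placed by the medium in which the lines differed. The lines differed by calls under MPA but not in vehicle for 25 of the 34 genes, in vehicle but not under MPA for 3, in both for 4 and in neither for 2. Over all genes tested, 1.72% were called between the lines under MPA and 1.14% in vehicle. The libraries of the lines did not overlap under MPA for 33 of the 34 genes, against 11.9% of all genes, and in vehicle for 15, against 16.2%. The 34 genes were chosen by a contrast made of these same line differences, so a line difference in some medium is built in. The shares are a description and not a test. By size, the difference under MPA was at least 2 times that in vehicle for 24 genes, and the vehicle difference at least 2 times that under MPA for 1, ALDH1A1. The 7 enlarged falls were all placed under MPA by calls. The placing turned with no filter on low counts, which called 281 genes and placed 61 under MPA and 154 in vehicle.

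The genes placed in vehicle were ALDH1A1, NR2F1 and RHOU, all with enlarged rises. ALDH1A1, which makes retinoic acid, measured 162, 138 and 139 CPM in U1U2 cells under MPA and 62.1, 65.7 and 67.4 in vehicle, against 141, 141 and 129 in NT cells under MPA and 99.4, 126 and 122 in vehicle. In vehicle every U1U2 library was below every NT library, whereas under MPA the libraries overlapped and the fitted line difference was 0.09 ± 0.12 (adjusted p = 0.957). The fitted difference in vehicle was -0.83 ± 0.12 (adjusted p = 0.00295). NR2F1, the orphan nuclear receptor COUP-TFI, averaged 94.2 ± 10.7 CPM in U1U2 cells under MPA and 45.8 ± 4.74 in vehicle, against 75.4 ± 3.95 in NT cells under MPA and 64.7 ± 5.56 in vehicle. RHOU averaged 16.8 ± 0.805 CPM in U1U2 cells under MPA and 7.26 ± 0.169 in vehicle, against 13.2 ± 2.24 in NT cells under MPA and 10.9 ± 1.29 in vehicle. For NR2F1 and RHOU the line differences were -0.50 ± 0.10 and -0.59 ± 0.13 in vehicle (adjusted p = 0.0289 and 0.0366) and 0.32 ± 0.10 and 0.34 ± 0.13 under MPA (adjusted p = 0.176 and 0.304). Leaving out 1 library, the difference of responses was called in 5 of 12 fits for NR2F1, 2 for RHOU and 1 for ALDH1A1.

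Among the 4 genes called in both media, the lines crossed in 3. APCDD1 differed by 1.34 ± 0.16 under MPA and -1.16 ± 0.25 in vehicle, FOXO1 by 0.69 ± 0.12 under MPA and -0.67 ± 0.12 in vehicle, and SYTL4 by -0.44 ± 0.10 under MPA and 0.46 ± 0.10 in vehicle. PLCB4 was higher in U1U2 cells in both, by 1.04 ± 0.08 under MPA and 0.37 ± 0.09 in vehicle. ABCA6 and C1orf115 were called in neither medium, each with fitted differences of opposite sign.

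**Figure D5:**
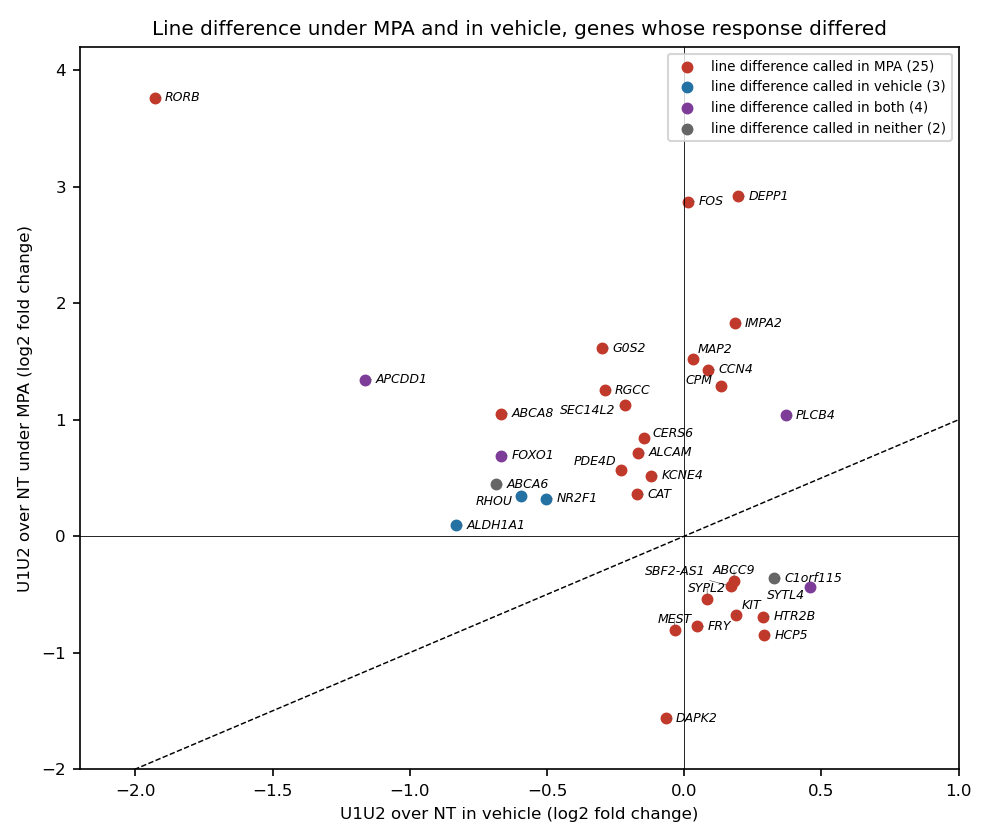
U1U2 over NT log2 difference under MPA (vertical axis) against the same difference in vehicle (horizontal axis) for the 34 genes, coloured by the medium in which the lines differed by calls; the dashed line marks equal differences. Most points lie farther from 0 along the vertical than along the horizontal axis, while ALDH1A1 sits near 0 under MPA and at -0.83 in vehicle.

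Promoter cells, the other line with activated PGR, gave values to set beside these. Their contrast with NT cells shares the NT libraries with the contrast above, so likeness between the contrasts is not counted. The MPA response of promoter cells was 2.10 ± 0.09 for RGCC, 3.23 ± 0.08 for the carboxypeptidase M gene, 4.48 ± 0.18 for APCDD1, 2.73 ± 0.12 for FOXO1, 3.72 ± 0.15 for IMPA2, 2.07 ± 0.16 for G0S2 and 3.57 ± 0.25 for DEPP1, and each of these rises was called. FRY had a response of -0.03 ± 0.09 in promoter cells (adjusted p = 0.87), beside 0.11 ± 0.09 in U1U2 cells and 0.94 ± 0.09 in NT cells. The difference of responses between U1U2 and promoter cells was called for none of the 34 genes, with 2 called among all genes (0.0129%), and the smallest adjusted p among the 34 was 0.0634, for FOXO1 (-0.92 ± 0.17) and KCNE4 (-0.66 ± 0.12). A missing call does not show that these responses were equal. For FOXO1 and KCNE4 the rises were 1.81 and 0.71 in U1U2 cells and 2.73 and 1.37 in promoter cells.

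Genes were also chosen by their MPA response in promoter cells, whose libraries are not compared in the contrast, although the filter, scaling and estimate of spread came from the fit to all 18 libraries. Of the 1032 genes called higher under MPA in promoter cells (6.63% of those tested), the median log2 response was 0.56 in U1U2 cells and 0.30 in NT cells. The difference of responses lay above 0 for 834 of them (80.8%), with a median of 0.22. It was called for 24 in either direction, and SYTL4 among these lay below 0 (-0.89). Of the 1307 called lower (8.4%), the median response was -0.49 in U1U2 cells and -0.28 in NT cells, the difference lay below 0 for 1002 (76.7%), with a median of -0.20, and 8 were called. Over all genes tested, 50.1% lay above 0, the median difference was 0.00 and 0.219% were called. Under MPA the median U1U2 over NT difference was 0.14 for the genes called higher and -0.12 for those called lower, and in vehicle it was -0.08 and 0.06.

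The 23 gene lists were chosen with earlier results of these data known, so their counts and medians are a description and test no enrichment. Of these lists, the steroid receptor targets had the highest median difference of responses, 0.32. On that list 31 of 34 tested members (91.2%) lay above 0 and 18 were at an unadjusted p under 0.05, all higher. Over all genes tested 50.1% lay above 0, and at an unadjusted p under 0.05 5.71% were higher and 4.33% lower. Only IMPA2 was called. FKBP5, a co-chaperone of steroid receptors, rose 11-fold in U1U2 cells and 7.41-fold in NT cells, and its difference of 0.57 ± 0.13 did not pass (adjusted p = 0.107). KLF15, a glucocorticoid-induced transcription factor, had 1.18 ± 0.34 (adjusted p = 0.244), and OMD, a matrix proteoglycan, 1.20 ± 0.31 (adjusted p = 0.149). Among 32 decidual markers and regulators 3 were called, DEPP1, FOXO1 and RORB, all higher, where 0.148% of all genes were called higher. RORB entered the test only through groups where it was high, so it adds no support to this count. The median over the list was 0.15 with 21 members above 0, and at an unadjusted p under 0.05 7 members were higher and 3 lower. The decidual transcription factor HAND2 had 0.87 ± 0.28 (adjusted p = 0.357) and BMP2 -0.53 ± 0.21 (adjusted p = 0.466), with responses of -2.30 in U1U2 cells and -1.77 in NT cells. Among 28 FOXO and insulin pathway genes, FOXO1 and DEPP1 were called, the median was 0.26, and at an unadjusted p under 0.05 11 members were higher and 1 lower. IGF1, a growth factor on that list, fell just outside the threshold (adjusted p = 0.0506) at low counts, summing to 50 in U1U2 cells under MPA and 7 in vehicle, against 15 in NT cells under MPA and 15 in vehicle.

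In 6 further lists 1 gene each was called, where 0.219% of all genes were: APCDD1 among 27 WNT pathway genes (median 0.12), KIT among 40 growth factors and receptors (0.16), the carboxypeptidase M gene among 38 matrix proteases and inhibitors (-0.05), CCN4 among 35 contractile genes (0.00), G0S2 among 22 genes of lipid storage (-0.01) and RORB among 18 clock genes (0.06). Growth factor genes close to the threshold were SPRY1, an inhibitor of receptor tyrosine kinase signalling (0.99 ± 0.20, adjusted p = 0.0506), and HGF (0.79 ± 0.16, adjusted p = 0.052). RORB, as said above, entered the test only through groups where it was high. No member was called in the other 14 lists. Interferon-stimulated genes had the lowest median, -0.21, with 11 of 40 above 0, and under MPA 12 of the 40 were called lower in U1U2 cells (6.22% of all genes) and 3 in NT cells (3.48% of all genes). IFIT1 and IFIT3, antiviral proteins, differed by -0.54 ± 0.12 and -0.52 ± 0.11 (adjusted p = 0.089 and 0.0643). Medians were 0.21 for 28 HOX genes and 0.20 for 36 genes of the BMP and TGF-beta pathways. On the latter list INHBB, an activin subunit, rose by 2.29 in U1U2 cells and by 1.26 in NT cells, and the difference did not pass the threshold. The list of 59 mitosis and replication genes had a median of -0.13. In the U1U2 response 0 of these were called, where 11.7% of all genes were. In the NT response 3 were called, 1 higher and 2 lower, where 5.93% of all genes were.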

How the data were processed

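The authors deposited whole-number read counts per gene for 78724 genes in 18 libraries (6 groups of 3), of which 40165 genes had at least 1 count, and log2 CPM values for 10402 genes. The deposited log2 CPM values differed by at most 5e-09 from those computed here from the counts, so they entered no test. STAR 2.6.0c, hg38, edgeR 4.2.2 and R 4.4.1 are named per the submitters' processing notes. Their roles, the annotation, the read counter and whether it used strand are not given in the sources used here. Per the labels' protocols, the kit was stranded and selected poly(A) RNA, and the labels give one batch.

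Counts were fitted with edgeR 4.0.16 in R 4.3.3 (quasi-likelihood test, TMM factors, filterByExpr at a minimum count of 10, 1 term per group over all 18 libraries, common biological coefficient of variation 0.129). P-values were adjusted by the Benjamini-Hochberg method over 15558 genes. Errors of log2 values were derived as the size of the log2 value divided by the square root of the F statistic of the same test. They are approximate and need not match its p-value. CPM are counts scaled to library size and TMM factor. Alternatives were RLE factors, DESeq2 1.42.0, limma-voom 3.58.1, no filter, a minimum count of 50, the 12 libraries alone, a replicate block and leaving out each library. The scripts were tested on simulated data. Same-group libraries all differed beyond sampling noise, at a chi-square per degree of freedom of 2.9 to 34.9. Each was counted as a sample, although such scatter can be technical and does not show that the libraries are separate cultures.

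The named genes were the 12 largest positive and 12 largest negative differences among called genes averaging 1 or more in log2 CPM, up to 6 per response class, called members of the gene lists and PGR. CERS6, DAPK2, FOS, ALCAM, NR2F1, PLCB4, ALDH1A1, KCNE4, CAT and RHOU fall outside this rule and are named so that all 34 are accounted for. Members of the 23 lists that were not called were named after their values were seen. The genes and lists were chosen with earlier results of these data known, and several lists overlap. Positions are from GENCODE 29 on GRCh38, matched for 14700 of the genes tested (94.5%). Besides the carboxypeptidase M gene (symbol CPM), DEPP1, SYTL4, HTR2B, HCP5, NR2F1, MEST, SEC14L2, SBF2-AS1 and FOXO1 overlap other genes, so their counts are uncertain to that extent.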

Additional observations from a re-analysis of the deposited data

Results flagged for a closer look

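The 34 genes below are listed because the test of the difference itself found that the MPA responses of U1U2 and NT cells differed. Values are the U1U2 response minus the NT response on the log2 scale.

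Differences called in every alternative fit were RGCC 1.54, CPM 1.15, APCDD1 2.51, FOXO1 1.36, IMPA2 1.64, G0S2 1.91 and DEPP1 2.72. Other enlarged rises with a line difference under MPA, in both media or in neither, and the opposite-sign rise of PDE4D, were CERS6 0.99, MAP2 1.49, ALCAM 0.88, CCN4 1.34, PLCB4 0.67, ABCA8 1.72, KCNE4 0.64, ABCA6 1.13, CAT 0.53, PDE4D 0.79 and SEC14L2 1.34. Enlarged rises with a line difference in vehicle were NR2F1 0.82, ALDH1A1 0.92 and RHOU 0.94. Low-count genes with opposite signs were RORB 5.69 and FOS 2.86. Enlarged falls were DAPK2 -1.50, HTR2B -0.98, HCP5 -1.14, KIT -0.86, MEST -0.77, ABCC9 -0.57 and SBF2-AS1 -0.60. Reduced responses and opposite signs with a lower U1U2 response were FRY -0.82, SYTL4 -0.89, SYPL2 -0.62 and C1orf115 -0.69.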

How the results depend on the processing

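The contrast counted 34 genes, 23 higher and 11 lower. With RLE factors it counted 38, with limma-voom 33 and with a minimum count of 50 it counted 49, 35 of these higher. DESeq2 counted 123 (83 higher, 40 lower), no filter 281 (205 higher, 76 lower), the 12 libraries alone 8 (8 higher, 0 lower) and the replicate block 12 (9 higher, 3 lower). Of the 34 genes, 34 were also called by DESeq2, 34 with a minimum count of 50, 32 with RLE factors, 31 by limma-voom, 31 with no filter, 12 with the replicate block and 8 with the 12 libraries alone. RGCC, CPM, APCDD1, FOXO1, IMPA2, G0S2 and DEPP1 were called in all 19 alternative fits, and none of the 34 changed sign in any. FRY lost its call in the fit of 12 libraries alone.

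The 27 enlarged, 2 reduced and 5 opposite-sign responses became 87 enlarged and 33 opposite under DESeq2, 88, 10 and 183 with no filter, and 8, 0 and 0 with the 12 libraries alone. With the replicate block 8 were enlarged and 2 opposite. Opposite signs numbered 8 with RLE factors and 9 with a minimum count of 50. The 25 genes placed under MPA, 3 in vehicle, 4 in both and 2 in neither became 72, 28, 9 and 14 under DESeq2, 61, 154, 16 and 50 with no filter, 7, 1, 0 and 0 with the 12 libraries alone, and 10, 0, 1 and 1 with the replicate block. Limma-voom placed 2 in both and 1 in neither, a minimum count of 50 placed 6 in vehicle, and placing by a size ratio of 2 left 1 in vehicle. Size gives no value for both or neither. The cause of these changes was not tested. The 12 libraries alone and each fit without a library also hold fewer samples, and the part of this was not tested.

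Leaving out 1 library gave 8 to 47 calls, 7 to 33 higher and 1 to 14 lower. Enlarged responses ranged from 7 to 32, reduced from 1 to 2 and opposite signs from 0 to 13. The placings ranged from 8 to 35 under MPA, 0 to 7 in vehicle, 0 to 4 in both and 0 to 2 in neither. Calls numbered 8, 15, 20, 14, 19, 11, 12, 11 and 20 without NT vehicle replicates 2 and 3, NT MPA replicates 1, 2 and 3, U1U2 vehicle replicates 2 and 3 and U1U2 MPA replicates 2 and 3, and 47, 35 and 34 without the first replicates of U1U2 vehicle, NT vehicle and U1U2 MPA. The medians of promoter-chosen genes ranged from 0.20 to 0.28 and from -0.24 to -0.16. Those of the lists of contractile genes (-0.16 to 0.09), lipid storage (-0.19 to 0.07), stress (-0.08 to 0.09), mitosis (-0.25 to 0.01), clock (-0.01 to 0.09) and steroid receptor genes (-0.05 to 0.00) took both signs.

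The replicate numbers were checked for pairing. Of 18 pairs of same-numbered libraries, 3 had a correlation of deviations over 0.1 (range -0.35 to 0.50). With 3 libraries per group, and scatter that can be technical, the check cannot decide whether the numbers pair the samples. The replicate block kept 12 of the called genes and lost 22. Whether the lost calls are weaker effects was not tested. The median standard error of the difference over all genes was 0.24 on the log2 scale, which limits what could be called with 3 libraries per group, most of all at low counts.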

Other observations

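Some of the called genes lie near each other. RGCC and FOXO1 lie 791.0 kb apart on chromosome 13, both with enlarged rises. The genes measured between them were not called, and ELF1, an ETS transcription factor, had a difference of responses of 0.32 ± 0.11 (adjusted p = 0.388). APCDD1 and IMPA2 lie 1491.1 kb apart on chromosome 18, where LINC02979, next to IMPA2, had 1.95 ± 0.72 (adjusted p = 0.44). RORB and ALDH1A1 lie 1416.9 kb apart on chromosome 9, with ANXA1 between them at -0.08 ± 0.22 (adjusted p = 0.921).

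ABCA8 and ABCA6 lie 123.3 kb apart in a row of related transporter genes on chromosome 17. Between them lies ABCA9, which had responses of -0.87 in U1U2 cells and -0.61 in NT cells and a difference of -0.26 ± 0.28 (adjusted p = 0.747). ABCA10 and ABCA5, on the far side of ABCA6, had differences of 0.12 ± 0.30 and 0.23 ± 0.19 (adjusted p = 0.919 and 0.667). The pairs were picked out after the calls were known, and no test of their nearness was made.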
